A study of Mus musculus with 4 samples.

Results

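The enzymes that write, copy and remove DNA methylation were followed in primary mouse hematopoietic stem and progenitor cells (HSPCs) after deletion of Chaf1b, which encodes a subunit of the CAF-1 histone chaperone. The 9 genes were set by name and not by a cut on their values, with earlier results of these data known: Dnmt1, Dnmt3a, Dnmt3b, Uhrf1, Uhrf2, Tet1, Tet2, Tet3 and Mbd2. All 9 were found by symbol among the 43629 gene identifiers counted, and all 9 were among the 16500 genes that passed the filter on low counts. RNA was sequenced from 4 libraries of CD117+ HSPCs of adult C57Bl/6 mice with floxed Chaf1b alleles, kept in culture with SCF at 50 ng/mL, IL6 at 20 ng/mL and IL3 at 10 ng/mL. The 2 control libraries, Chaf1b (fl/fl), came from cells that received the empty retroviral vector MIGR1, and the 2 Chaf1b-deleted libraries from cells that received MIGR1-Cre. Cells positive for eGFP, the marker carried by the vector, were sorted 48 h after spinfection, so both groups shared the floxed alleles, the viral exposure and the sort, and Cre was not restricted to a cell type by its promoter. Nothing in the labels says that replicates came from separate animals, and p-values measure only the spread between these libraries.

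DNMT1 copies methylation of CpG dinucleotides onto the new strand after DNA replication, guided by UHRF1, which binds hemimethylated DNA and modified histone H3. DNMT3A and DNMT3B place methylation on unmethylated DNA, the TET enzymes oxidize 5-methylcytosine as a step towards its removal, and MBD2 binds methylated CpG and recruits the NuRD complex. CAF-1 assembles histones H3 and H4 on the same newly replicated DNA. In blood, DNMT3A and TET2 are known for the balance between self-renewal and differentiation of stem cells and for their frequent mutation in myeloid malignancies.

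The libraries held between 18468637 and 25409926 reads on genes, so that 3 reads corresponded to 0.118 to 0.162 CPM, the count scaled to 1000000 reads on genes. Chaf1b stood at 80.3 and 57.9 CPM in the control libraries and at 16.1 and 17.9 CPM in the Chaf1b-deleted libraries, and the log2 fold change was -2.01 ± 0.25 (SE; adjusted p = 0.0330, quasi-likelihood test of edgeR, adjusted by the Benjamini-Hochberg method over all genes tested). Chaf1a, the partner subunit, had a log2 fold change of -0.43 ± 0.26 (adjusted p = 0.569 in the same edgeR test). Chaf1b-deleted replicate 1 stood apart from the other libraries. A list of 20 interferon-stimulated genes summed to 2693 CPM in it against 397 to 506 CPM elsewhere, with Isg15 at 43.1 CPM against 1.28 to 2.98, Ifit1 at 163 CPM against 4.06 to 6.41 and Irf7 at 276 CPM against 20.4 to 35.8. Xist, the RNA of the inactive X chromosome, had 7905 reads in that library and 23 to 33 in the others. By this RNA, Chaf1b-deleted replicate 1 held female cells and the others hardly any. It therefore differed from both controls in the animals used and not in Cre alone, and the part of this difference in the results was not tested. The share of uniquely aligned reads that the counting assigned to no annotated exon was 35.8% in Chaf1b-deleted replicate 1, 42.1% and 42.3% in control libraries and 48.3% in Chaf1b-deleted replicate 2. As the strand setting of the counting is not given, these may include reads on the opposite strand of exons. Kit, which encodes CD117, was measured at 95.6 to 124 CPM in every library. Among the HSPC markers, Cd34 was at 76.9 and 77.6 CPM in control libraries and at 93.4 and 134 CPM after deletion, a log2 fold change of 0.57 (adjusted p = 0.325 in the same edgeR test), and Flt3, a cytokine receptor of early progenitors, was called higher at 2.09 (adjusted p = 0.0383). Myb, a transcription factor of progenitors, stood at -0.59 (adjusted p = 0.313), with both Chaf1b-deleted libraries below both controls. The part of these markers in the results was not tested. Neutrophil and monocyte markers, 14 genes, summed to 44242 and 48987 CPM in control libraries and to 64121 and 45875 CPM after deletion. The T cell genes Cd3e and Cd3g were at or under 0.382 CPM.

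None of the 9 genes passed the test for a difference between Chaf1b-deleted and control HSPCs. By edgeR's quasi-likelihood test, 0 of 9 had a change of at least 1.5-fold at a Benjamini-Hochberg adjusted p under 0.05, where 0.376% of all genes tested did, 0.37% higher and 0.00606% lower. The count at an unadjusted p under 0.05 was 0 of 9, where 12.3% of all genes tested were. The edgeR exact test, the edgeR likelihood ratio test and DESeq2 also called 0 of the 9, where they called 3.48%, 3.78% and 3.05% of all genes tested. The median log2 fold change of the 9 genes was -0.030, as was that of all genes tested, and 6 of 9 lay below 0, where 52.5% of all genes tested did. In CPM, 2 of the 9 had groups that did not overlap, Dnmt1 lower and Dnmt3b higher after deletion, where the groups of 44.4% of all genes tested did not overlap, 21.4% with the Chaf1b-deleted libraries higher and 22.9% with them lower. In this bulk RNA, fewer cells of a type and less RNA per cell cannot be told apart.

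**Figure D1:**
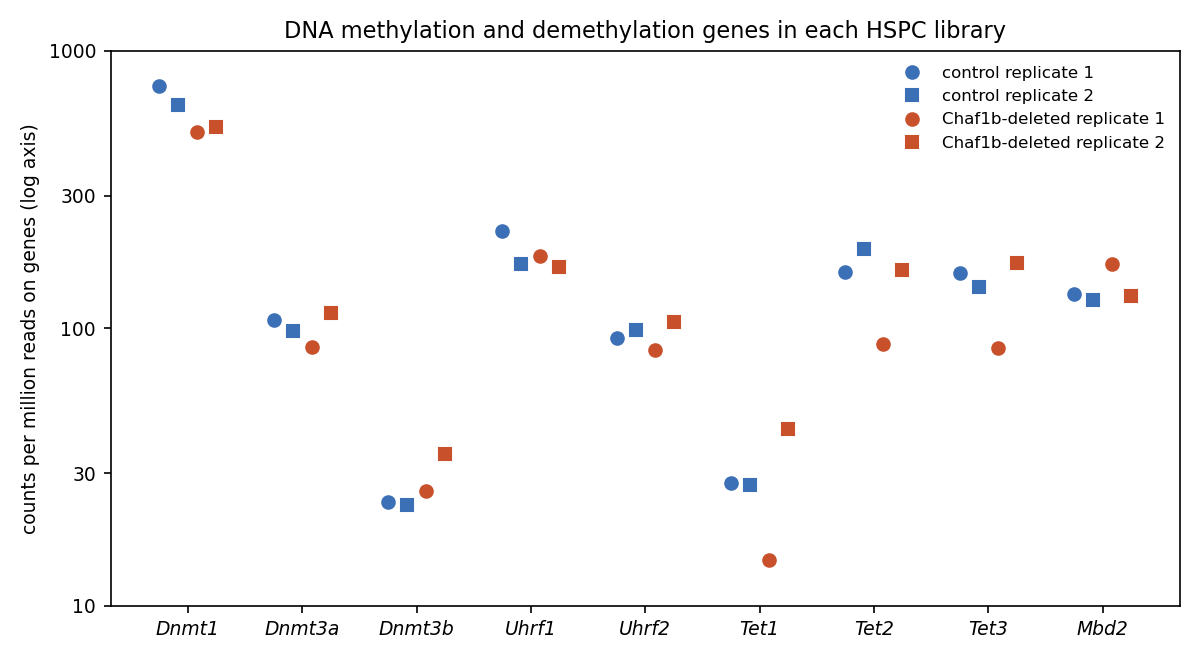
CPM of each of the 9 genes in each library (vertical axis, log scale), with control libraries in blue and Chaf1b-deleted libraries in red, replicate 1 as circles and replicate 2 as squares. Dnmt1 is the gene with the highest CPM in every library, from 510 to 745, and the 3 Tet genes are the ones whose Chaf1b-deleted libraries lie farthest apart.

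**Figure D2:**
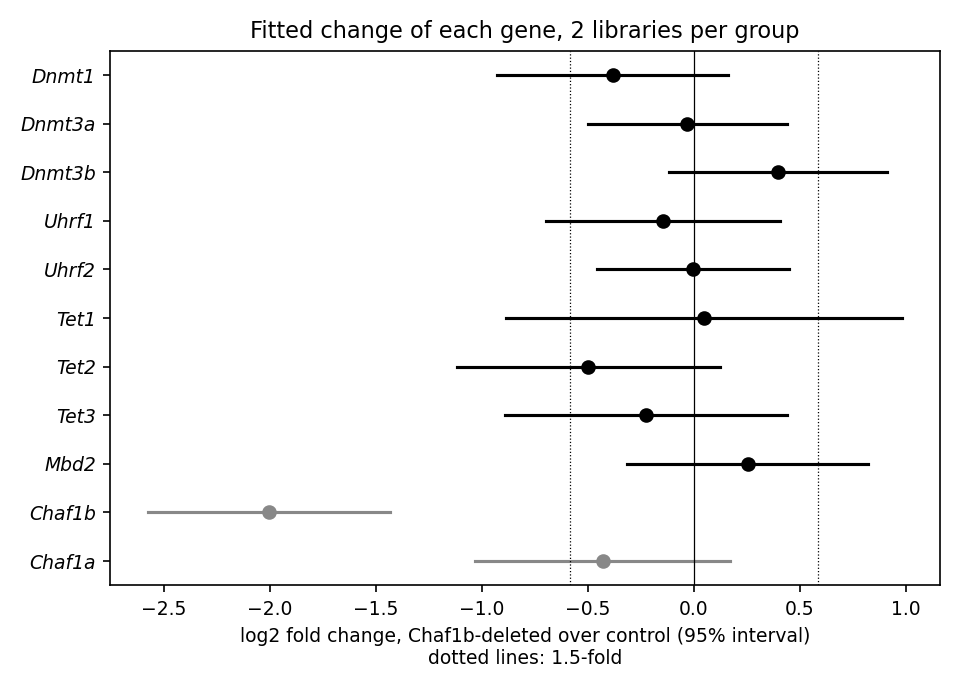
Log2 fold change of each of the 9 genes, Chaf1b-deleted against control, with its 95% interval from edgeR's quasi-likelihood fit. Every interval includes 0, and the estimates run from -0.50 for Tet2 to 0.40 for Dnmt3b.

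Of the maintenance enzymes, Dnmt1 was lower in both Chaf1b-deleted libraries without passing the test, and Uhrf1 showed overlapping groups. Dnmt1 (ENSMUSG00000004099, chr9:20711650-20757317, minus strand, NCBIM37, which is the build mm9) had 16929 and 16226 reads in the control libraries and 12000 and 9849 reads in the Chaf1b-deleted libraries. These corresponded to 745 and 639 CPM in the controls (692 ± 75.0, mean ± SD, n = 2) and to 509.8 and 533 CPM after deletion (522 ± 16.6, n = 2). Both Chaf1b-deleted libraries thus lay below both controls. The log2 fold change was -0.38 ± 0.24 (SE; 0.767-fold, 95% interval 0.525 to 1.12; adjusted p = 0.575, edgeR's quasi-likelihood test), an interval that includes both decreases and a small increase. Without 1 library at a time the log2 fold change of Dnmt1 ran from -0.50 to -0.26. Since the groups did not overlap, leaving out 1 library could hardly turn its sign.

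Uhrf1 (ENSMUSG00000001228, chr17:56442744-56462909, plus strand) was at 223 and 170.0 CPM in control libraries and at 181 and 166 CPM in the Chaf1b-deleted libraries. The spread between the controls was wider than that after deletion, 197 ± 37.6 against 174 ± 10.6 CPM (mean ± SD, n = 2 each), and the groups overlapped. Its log2 fold change was -0.15 ± 0.24 (SE; 0.903-fold, 95% interval 0.616 to 1.32; adjusted p = 0.856, edgeR's quasi-likelihood test). Without control replicate 1 the sign turned, to 0.070, and without Chaf1b-deleted replicate 2 it was 0.027. The reads of Uhrf1 per read of Dnmt1 numbered 0.300 and 0.266 in control libraries and 0.356 and 0.312 after deletion. Of the exonic stretches of 31 bases of Uhrf1, 36.4% occur elsewhere in the genome, most of them in the pseudogene Gm5648, which itself received 5 to 10 reads a library. Reads that fit both places may have been left out of the count of Uhrf1.

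Uhrf2, a paralog of UHRF1 that also binds hemimethylated DNA and 5-hydroxymethylcytosine, was the gene with the estimate nearest to 0. Uhrf2 (ENSMUSG00000024817, chr19:30105003-30168212, plus strand) had 92.4 and 98.7 CPM in control libraries and 83.4 and 105 CPM in the Chaf1b-deleted libraries. The Chaf1b-deleted libraries lay on either side of the controls. The log2 fold change was -0.0036 ± 0.20 (SE; 95% interval 0.728 to 1.37-fold; adjusted p = 0.997, edgeR's quasi-likelihood test). Uhrf1 made up 70.7% and 63.3% of the reads of the pair in control libraries and 68.5% and 61.3% after deletion.

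Dnmt1 and Uhrf1 are genes known to be expressed with DNA replication, and their promoters were searched for the words bound by E2F factors, which drive S-phase genes. The RefSeq promoter table, built on GRCm38.p6, was searched for 8 of the 9 genes, all but Mbd2, and held 15 of 20 S-phase genes. Windows ran from 250 bases before to 50 bases after each start, and every window used here matched NCBIM37 exactly and once. TTTCCCGC, TTTCGCGC, TTTGGCGC or TTTGCCGC on either strand was present for Dnmt1 and Uhrf1, thus 2 of 8 genes, and for 7 of 15 S-phase genes. The same words were present for 2.61% of the 27025 genes in the table, each counted over all its starts. Dnmt1 and Uhrf1 have several starts there, and only the window of the most downstream start of each held a word. These windows are chr9:20757018-20757317 and chr17:56443486-56443785, and distances below are from their starts. The other windows of Dnmt1 and Uhrf1 held none. The words overlap one another where a TTTGGCGC runs into a GCGCGAAA, as in Mcm6. Stretches of 30 bases around a match are shown for Dnmt1 and Uhrf1, with Mcm5, a subunit of the replicative helicase and a textbook E2F target, for comparison. They are written on the strand of the gene and the capitals mark the word, which reads as its reverse complement in the upper stretch of Dnmt1. A match is a description of these letters and was not tested as a binding site.
Dnmt1, chr9:20757268-20757297, minus strand, word 219 to 212 bases before the start: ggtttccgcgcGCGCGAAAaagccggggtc
Dnmt1, chr9:20757018-20757047, minus strand, word 33 to 40 bases after the start: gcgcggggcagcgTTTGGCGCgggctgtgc
Uhrf1, chr17:56443540-56443569, plus strand, word 185 to 178 bases before the start: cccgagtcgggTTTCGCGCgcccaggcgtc
Mcm5, chr8:77633244-77633273, plus strand, word 153 to 146 bases before the start: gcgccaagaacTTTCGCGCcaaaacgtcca

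The windows of the other 6 genes searched, Dnmt3a, Dnmt3b, Uhrf2, Tet1, Tet2 and Tet3, did not hold these words. The ETS-type word CCGGAAGT was found in the windows of 0 of 8 genes, where 4.31% of all genes in the table held it, and CCAAT, on either strand, in those of 3 of 8, where 41.1% did.

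The S-phase list was measured beside Dnmt1 and Uhrf1. Its 20 genes summed to 4014 and 3269 CPM in control libraries and to 3007 and 2842 CPM in the Chaf1b-deleted libraries. Of these genes 14 had a log2 fold change below 0, where 52.5% of all genes tested did, and 6 above, with a median of -0.28. By edgeR's quasi-likelihood test 0 of 20 were called, where 0.376% of all genes tested were. In CPM 10 were lower in both Chaf1b-deleted libraries than in both controls, where 22.9% of all genes tested were, and 1 was higher, where 21.4% were. Lig1, the ligase that joins Okazaki fragments, was the only one with an unadjusted p under 0.05, where 12.3% of all genes tested had one. Its log2 fold change was -0.53 ± 0.21 (SE; adjusted p = 0.376 in the same edgeR test). Mcm5 stood at -0.45 and Mcm2, another helicase subunit, at -0.32, whereas Pcna, the sliding clamp that also binds DNMT1, stood at 0.0049 and Ccne1, a cyclin of the start of S phase, at 0.26. Without Chaf1b-deleted replicate 1 the median was -0.42, and without Chaf1b-deleted replicate 2 it was -0.12. The part of these genes in the level of Dnmt1 was not tested.

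Of the de novo methyltransferases, Dnmt3b was higher in both Chaf1b-deleted libraries without passing the test and Dnmt3a was not separated from control. Dnmt3a (ENSMUSG00000020661, chr12:3806007-3914443, plus strand) was at 107 and 98.0 CPM in control libraries and at 85.9 and 113 CPM in the Chaf1b-deleted libraries. The lowest and the highest values were both Chaf1b-deleted libraries. Its log2 fold change was -0.030 ± 0.20 (SE; 95% interval 0.707 to 1.36-fold; adjusted p = 0.969, edgeR's quasi-likelihood test). The gene shares a short exonic stretch with Gm10485 on the opposite strand, and the strand setting of the counting is not given in the sources used here.

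Dnmt3b (ENSMUSG00000027478, chr2:153475186-153513466, plus strand) had 538 and 588 reads in control libraries and 611 and 649 after deletion, or 23.7, 23.1, 26.0 and 35.1 CPM in that order. The controls were close together at 23.4 ± 0.369 CPM (mean ± SD, n = 2), and both Chaf1b-deleted libraries lay above them at 30.5 ± 6.49 CPM (n = 2), with Chaf1b-deleted replicate 2 the higher. Its log2 fold change was 0.40 ± 0.22 (SE; 1.32-fold, 95% interval 0.921 to 1.88; adjusted p = 0.536, edgeR's quasi-likelihood test), and it ran from 0.29 to 0.51 when 1 library at a time was left out. Of the exonic stretches of 31 bases of Dnmt3b, 13.2% occur elsewhere, mostly in the region of Gm14490, which had 1 to 8 reads a library.

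A share within a library does not depend on how libraries are scaled. Dnmt3b made up 18.1% (95% Wilson interval 16.7 to 19.5) and 19.1% (17.8 to 20.5) of the reads on Dnmt3a and Dnmt3b in the controls, and 23.2% (21.6 to 24.9) and 23.7% (22.1 to 25.3) in the Chaf1b-deleted libraries. The groups did not overlap, and neither did the counting intervals of any control and any Chaf1b-deleted library. Per kilobase of exon the share was 41.8% and 43.5% in control libraries and 49.6% and 50.3% after deletion. No test was run on this share, since an exact two-sided permutation test of 2 against 2 libraries cannot go below p = 0.333, and the intervals cover counting error only, not the spread between animals or cultures. The reads of Dnmt3a per read of Dnmt1 were 0.144 and 0.153 in control libraries and 0.168 and 0.213 after deletion.

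**Figure D3:**
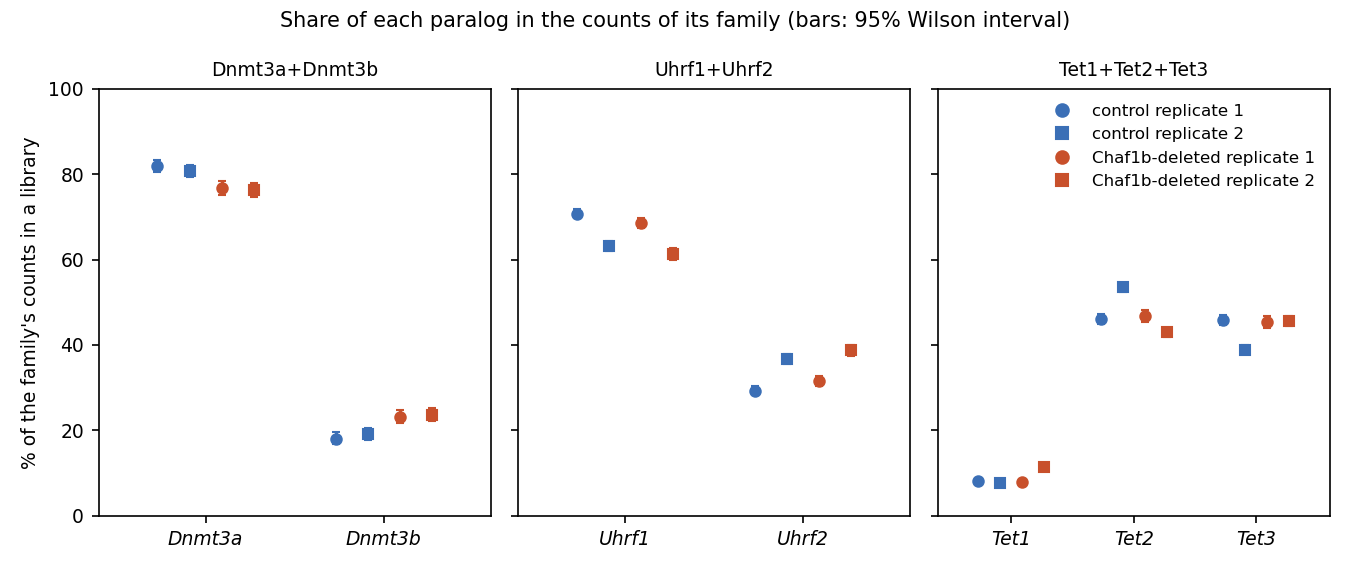
Percentage of the reads of each gene family that fell on each paralog, by library (vertical axis), with 95% Wilson intervals as bars. Dnmt3b took 18.1% and 19.1% of its pair in control libraries and 23.2% and 23.7% after deletion, whereas the shares of Uhrf1 and Uhrf2 overlapped between the groups.

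The 3 TET dioxygenases were below both controls in Chaf1b-deleted replicate 1, whereas in Chaf1b-deleted replicate 2 Tet1 and Tet3 were above both controls and Tet2 lay between them in CPM. Tet1 (ENSMUSG00000047146, chr10:62267318-62361866, minus strand) was at 27.7 and 27.3 CPM in control libraries and at 14.6 and 43.3 CPM in the Chaf1b-deleted libraries. The controls differed from each other by less than 1 CPM and the Chaf1b-deleted libraries lay on opposite sides of them. The log2 fold change was 0.050 ± 0.40 (SE; 95% interval 0.542 to 1.98-fold; adjusted p = 0.975, edgeR's quasi-likelihood test), the widest interval of the 9 genes.

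Tet2 (ENSMUSG00000040943, chr3:133126643-133207354, minus strand) was at 159 and 193 CPM in control libraries and at 87.8 and 162 CPM in the Chaf1b-deleted libraries. Chaf1b-deleted replicate 1 was below both controls and replicate 2 lay between them. After TMM scaling, edgeR's correction for library composition, the values were 159, 190, 94.9 and 153 CPM in that order and the groups no longer overlapped. In the fit its log2 fold change was -0.50 ± 0.27 (SE; 0.709-fold, 95% interval 0.460 to 1.09; adjusted p = 0.518, edgeR's quasi-likelihood test), the lowest estimate of the 9 genes. Without 1 library at a time it ran from -0.86 to -0.20. Since the TMM-scaled groups did not overlap, this could hardly turn its sign.

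Tet3 (ENSMUSG00000034832, chr6:83312367-83391672, minus strand) was at 158 and 140.5 CPM in control libraries and at 85.1 and 172 CPM in the Chaf1b-deleted libraries. As for Tet1, the Chaf1b-deleted libraries were the lowest and the highest of the 4. The fitted log2 fold change was -0.22 ± 0.29 (SE; 95% interval 0.540 to 1.36-fold; adjusted p = 0.815, edgeR's quasi-likelihood test).

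Set against the mean of the controls on the log2 CPM scale, Chaf1b-deleted replicate 1 stood at -0.91 for Tet1, -0.997 for Tet2 and -0.81 for Tet3. Chaf1b-deleted replicate 2 stood at 0.65, -0.11 and 0.21. The median over all genes was -0.15 in the former and 0.08 in the latter library, and 12.0% of 16414 genes lay more than 2-fold below the controls in the former against 1.40% in the latter. None of the 3 Tet genes reached that 2-fold cut, so the share of genes as low as they were is larger and is not given. Chaf1b-deleted replicate 1 minus replicate 2 thus came to -1.57 for Tet1, -0.88 for Tet2 and -1.01 for Tet3, where the median size of this gap over all genes was 0.376. Control replicate 1 minus replicate 2 came to 0.021, -0.28 and 0.17, where the median size was 0.276.

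The direction of Tet1 and Tet3, and the size of the estimate of Tet2, turned on which Chaf1b-deleted library was used. Without Chaf1b-deleted replicate 2, the log2 fold changes were -0.77 for Tet1, -0.86 for Tet2 and -0.67 for Tet3. Without Chaf1b-deleted replicate 1 they were 0.57, -0.20 and 0.12. In these fits the lone library is assumed to vary like the others, so only the size of the change is given. The interferon-stimulated genes, Xist and the share of reads assigned to no exon set the same library apart, and their part in the levels of the Tet genes was not tested.

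**Figure D4:**
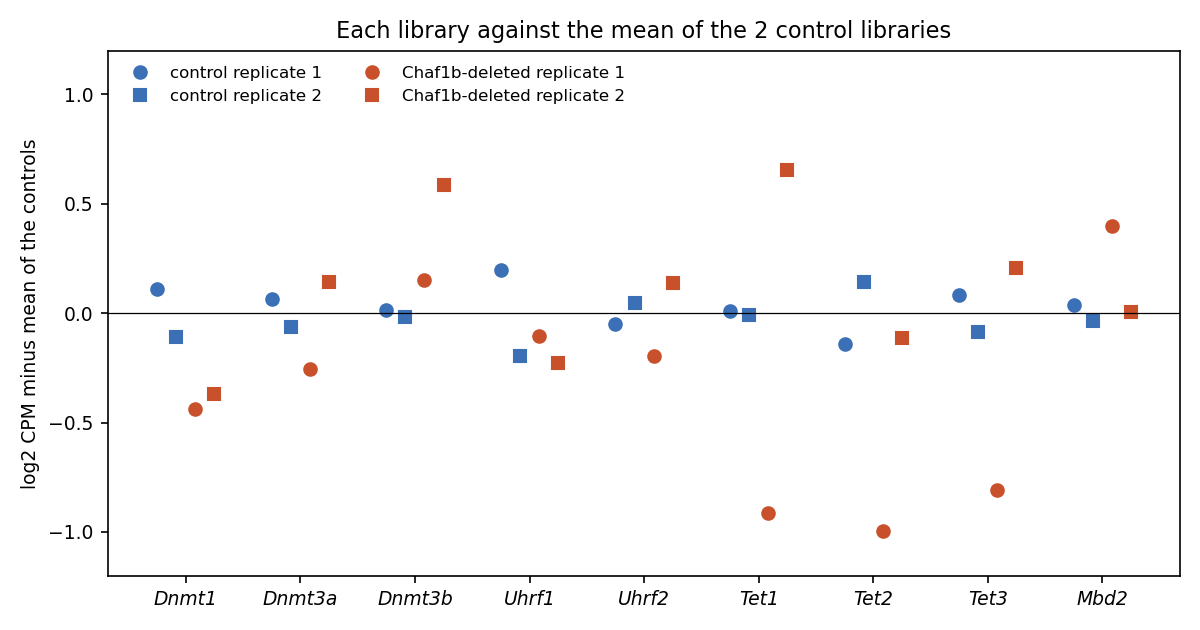
Log2 CPM of each library minus the mean log2 CPM of the controls (vertical axis) for the 9 genes, with control libraries in blue and Chaf1b-deleted libraries in red. Chaf1b-deleted replicate 1, the red circle, lies between -0.997 and -0.81 for the 3 Tet genes, while both red symbols lie below the controls for Dnmt1 and above them for Dnmt3b.

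Within the Tet family, Tet2 took 46.1%, 53.5%, 46.8% and 42.9% of the reads in control replicates 1 and 2 and Chaf1b-deleted replicates 1 and 2. Tet3 took 45.9%, 38.9%, 45.4% and 45.6% in the same order, and Tet1 took 8.04%, 7.57%, 7.80% and 11.5%. The shares in Chaf1b-deleted replicate 1 were therefore near those of control replicate 1, although the level of each Tet gene there was lower. For each of the 3 genes the shares overlapped between the groups.

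The order of the libraries was shared by several of the genes. In CPM, Dnmt3a, Tet1 and Tet3 ran from Chaf1b-deleted replicate 1 through control replicates 2 and 1 to Chaf1b-deleted replicate 2, the order of the share of reads assigned to no exon. That was 3 of 9 genes, where 6.50% of all genes tested had this order. With Uhrf2, 4 of 9 had Chaf1b-deleted replicate 1 as the lowest and Chaf1b-deleted replicate 2 as the highest library, where 15.1% of all genes tested did. This order was picked out after the values were seen, and the part of the reads assigned to no exon in it was not tested.

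Mbd2, the reader of methylated CpG, did not differ beyond the spread of its libraries. Mbd2 (ENSMUSG00000024513, protein coding) was at 133 and 127 CPM in control libraries and at 171 and 131 CPM in the Chaf1b-deleted libraries. Chaf1b-deleted replicate 1 was the highest and replicate 2 lay between the controls. The fitted log2 fold change was 0.25 ± 0.24 (SE; 1.19-fold, 95% interval 0.805 to 1.77; adjusted p = 0.742, edgeR's quasi-likelihood test). It was 0.54 without Chaf1b-deleted replicate 2 and -0.075 without Chaf1b-deleted replicate 1.

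The other subunits of the NuRD complex and the other readers of methylated DNA did not pass the test either. Of 12 NuRD genes, 0 had an unadjusted p under 0.05, where 12.3% of all genes tested did, and the median log2 fold change was -0.020. Hdac2, a histone deacetylase of the complex, was at 159.9 and 127 CPM in control libraries and at 100.1 and 97.2 CPM after deletion, with both Chaf1b-deleted libraries below the controls and an adjusted p of 0.411 in edgeR's quasi-likelihood test. The chromatin remodeler Chd3 had a log2 fold change of -0.42, and the MTA subunits Mta3 and Mta1 stood at -0.17 and -0.18. Of 9 methyl-CpG reader genes, 0 had an unadjusted p under 0.05, where 12.3% of all genes tested did, and the median was -0.19. Mbd6 stood at 0.48, the thymine glycosylase Mbd4 at -0.35, Zbtb33, which encodes the reader Kaiso, at -0.48 and Mbd5 at -0.28.

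Between genes, levels were compared as CPM per kilobase of exon. Dnmt1 was the highest of the 9 in every library, at 141 and 121 CPM per kilobase in control libraries and 96.8 and 101 after deletion. Uhrf1 followed at 39.1 to 52.4 and Mbd2 at 39.4 to 53.2 CPM per kilobase, ranges that overlapped, so that their order was not resolved. With the exonic length limited to stretches that occur once in the genome, Uhrf1 rose to between 61.5 and 82.4 and was second in every library, whereas with the length of the longest transcript Mbd2 was second.

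Tet2 was next at 9.54 to 21.0 CPM per kilobase, with Tet3 at 7.68 to 15.5 and Uhrf2 at 9.70 to 12.2, and these 3 ranges also overlapped. With the length of the longest transcript Uhrf2 was at 23.6 to 29.7 and above Tet2 and Tet3 in every library. Dnmt3a stood at 6.44 and 5.89 CPM per kilobase in the controls, above Dnmt3b at 4.63 and 4.53. In the Chaf1b-deleted libraries the pair was not separated, at 5.16 and 6.81 for Dnmt3a and 5.08 and 6.88 for Dnmt3b. With the length of the longest transcript Dnmt3a moved up and stayed above Dnmt3b in every library, at 8.86 and 11.7 against 6.01 and 8.13 after deletion. Tet1 was the lowest of the 9 in every library, at 0.993 to 2.94 CPM per kilobase.

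The wider pathway was described by 6 lists of 86 genes, of which 66 passed the filter on low counts. With edgeR's quasi-likelihood test 0 of 66 were called, where 0.376% of all genes tested were. At an unadjusted p under 0.05, 6 were higher and 4 lower, where 9.15% and 3.1% of all genes tested were. The log2 fold change lay below 0 for 45 of 66, where 52.5% of all genes tested did, with a median of -0.17. The edgeR exact test and the likelihood ratio test called Gadd45a, Gadd45g and Dazl, where they called 3.48% and 3.78% of all genes tested. DESeq2 called Gadd45a and Gadd45g, where it called 3.05% of all genes tested.

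The cofactors of DNA methylation held no call, where 0.376% of all genes tested were called. Of 13 tested, 12 had a log2 fold change below 0, where 52.5% of all genes tested did, and 9 were lower in both Chaf1b-deleted libraries than in both controls, where 22.9% of all genes tested were. Their median was -0.31. Cdca7l, a relative of the CDCA7 protein that works with the remodeler HELLS, was at 71.6 and 75.1 CPM in control libraries and at 43.6 and 49.3 CPM after deletion, a log2 fold change of -0.64 ± 0.20 (SE; adjusted p = 0.241, edgeR's quasi-likelihood test). Mphosph8, which binds methylated histone H3 lysine 9, stood at -0.62 ± 0.23 (adjusted p = 0.327 in the edgeR test). Hells, the remodeler that DNMTs need in compact chromatin, was at 219 and 147 CPM in control libraries and at 124 and 132 CPM after deletion, with a log2 fold change of -0.49 (adjusted p = 0.492 in the edgeR test). Ehmt1, an H3K9 methyltransferase, stood at -0.35.

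Among the partners of oxidation and base excision, the Gadd45 genes had the lowest p-values. GADD45 proteins respond to stress and have been linked to DNA demethylation by repair. Gadd45g was at 8.27 and 10.2 CPM in control libraries and at 28.3 and 24.3 CPM after deletion, a log2 fold change of 1.55 ± 0.28 (SE; 2.92-fold, 95% interval 1.87 to 4.56; adjusted p = 0.0773, edgeR's quasi-likelihood test). Gadd45a was at 27.8, 31.5, 56.8 and 51.7 CPM in the order control 1, control 2, Chaf1b-deleted 1 and Chaf1b-deleted 2, a log2 fold change of 0.90 ± 0.22 (adjusted p = 0.157 in the edgeR test). Gadd45b was at 29.0, 23.1, 50.7 and 43.9 CPM in that order, a log2 fold change of 0.89 ± 0.24 (adjusted p = 0.203 in the edgeR test). In all 3, both Chaf1b-deleted libraries lay above both controls, where this held for 21.4% of all genes tested. Lig3, the ligase that seals the strand after base excision, stood at -0.61 ± 0.22 (adjusted p = 0.314 in the edgeR test). Over the 16 genes of this list tested, the median was -0.19, and 4 genes were higher and 1 was lower by an unadjusted p under 0.05, where 9.15% and 3.1% of all genes tested were.

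The enzymes that supply the methyl donor and 2-oxoglutarate, the cosubstrate of the TET enzymes, had a median log2 fold change of -0.31 over 14 genes tested. By edgeR's quasi-likelihood test 0 of 14 were called, where 0.376% of all genes tested were. Mtr, the methionine synthase, stood at -0.53 ± 0.21 (SE; unadjusted p = 0.0373 and adjusted p = 0.360 in the edgeR test). Mat2a, which makes S-adenosylmethionine, stood at -0.38 with an unadjusted p over 0.05.

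Germline genes whose promoters are known to be silenced by DNA methylation in somatic cells were nearly silent in every library. Of 20 such genes only 3 passed the filter on low counts, and 2 had no read in any library. The list summed to 2.86 and 2.28 CPM in control libraries and to 3.91 and 4.66 CPM in the Chaf1b-deleted libraries. Dazl, an RNA-binding protein of germ cells, had 5 and 5 reads in control libraries and 39 and 24 reads after deletion. These corresponded to 0.220 and 0.197 CPM in the controls and to 1.66 and 1.30 CPM after deletion. Both Chaf1b-deleted libraries lay above the controls, at a log2 fold change of 2.84 ± 0.63 (SE; 95% interval 2.58 to 19.8-fold; adjusted p = 0.130, edgeR's quasi-likelihood test). The other genes of the list that were tested were Brdt, a testis bromodomain protein, at 0.78 and Dpep3 at 0.067.

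**Figure D5:**
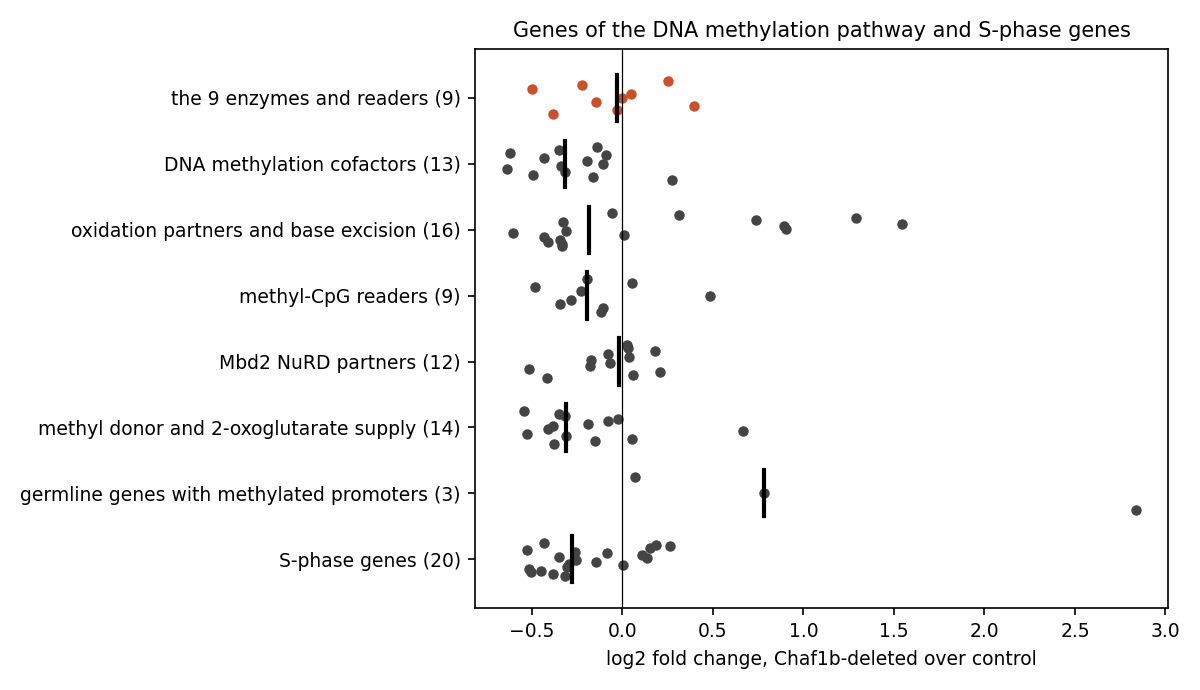
Log2 fold change of each tested gene (points) by list, Chaf1b-deleted against control, with the median of each list marked. The 9 enzymes and readers have a median of -0.030 between -0.50 and 0.40, and the S-phase genes a median of -0.28. The interferon-stimulated genes, which are not drawn, had a median of 2.64 (0.29 without Chaf1b-deleted replicate 1).

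The likeness of the profiles was measured as the Euclidean distance of log2 CPM over the 4 libraries, each gene centred on its own mean. Among the 9 genes, Dnmt3a and Uhrf2 were the closest pair at 0.167, and Dnmt1 was nearest to Uhrf1 at 0.299. Tet2 and Tet3 were 0.418 apart, Tet1 was nearest to Tet3 at 0.425, Dnmt3b to Uhrf2 at 0.406 and Mbd2 to Uhrf1 at 0.468. Over all genes tested, the profiles most like that of Dnmt1 were those of Wdr92, Zcrb1 and Ccdc127, and those most like Uhrf1 were Mtch2, E2f6 and Cnot10. Tinf2, Klhl12 and Mybl1 were nearest to Dnmt3a, Nbeal2, B9d1 and B3gnt9-ps to Dnmt3b, and Heatr2, Zfp295 and Ube2q2 to Uhrf2. For the Tet genes they were 1700001G11Rik, Gltscr1 and Gm17137 for Tet1, Gm3550, 2810455O05Rik and 4930412M03Rik for Tet2, and Plcg1, Zfp626 and Dnajb7 for Tet3. For Mbd2 they were Parp11, Atp6v0b and Myl6. With 4 libraries, such nearness is a description of these profiles only.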

How the data were processed

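RNA-seq counts of 4 HSPC libraries were used, and groups and replicate numbers came from the sample titles. Libraries were made from total RNA after ribosomal depletion with a stranded kit. Reads were aligned to mm9 with STAR and counted per gene with HTSeq by the authors, and the deposited values are raw counts per library, not normalized or pooled. The annotation release is not given in the sources used here. The IL6 concentration is that of the labels, and the study's methods give a lower one. Of 43629 identifiers, 33068 were named from the NCBIM37 annotation and 10561 have no name in it. Rows of unassigned reads were left out of library totals.

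CPM was computed on the total counted on genes. Differential expression was computed on all genes with edgeR 4.0.16 (glmQLFit, glmQLFTest) in R 4.3.3, with TMM factors of 0.925 to 1.06, filterByExpr at a minimum count of 10 (16500 genes) and no covariate. A call needed 1.5-fold and a Benjamini-Hochberg adjusted p under 0.05. DESeq2 1.42.0 and other settings were tried as alternatives, and the fits were tested on simulated data. Reads are given for some genes only, and the depth of a library by its reads on genes. Intervals on shares cover counting error only.

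The 9 genes and all lists were chosen with earlier results of these data known. The text names the 9 genes, Chaf1b and Chaf1a, up to 4 genes of each pathway list with the smallest unadjusted p, a few set genes of the S-phase, interferon and marker lists, and the nearest profiles of each gene. Some genes that this rule names are not reported here. Xist, Cd3e, Cd3g and Myb were named after their values were seen. Summed CPM follow for control replicates 1 and 2, then Chaf1b-deleted replicates 1 and 2. HSPC markers summed to 1875, 2125, 1891 and 2154, and mast cell and basophil markers to 1221, 1096, 1188 and 1024. Erythroid and megakaryocyte markers summed to 139, 115, 153 and 257, and lymphocyte markers to 86.2, 108, 102 and 82.1. Stromal and endothelial markers summed to 242, 245, 295 and 297. The median log2 fold changes of these lists were 0.19, 0.10, 0.36, 1.09 and 1.48 in that order. Their part in the results was not tested. Sequences came from NCBIM37 at windows of the RefSeq promoter table.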

Additional observations from a re-analysis of the deposited data

How the results depend on the processing

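None of the 9 genes was called with DESeq2 size factors or library size in place of TMM, without the filter, with at least 10 counts in every library, by the edgeR exact or likelihood ratio test, by DESeq2, at 2-fold and an adjusted p under 0.01, with the replicate block, or without any 1 library. The count at an unadjusted p under 0.05 was 1 with the replicate block (Tet2, adjusted p = 0.334 in edgeR). Fits without 1 library leave 1 library in a group, and no such count is given for them. Shared replicate numbers were not shown to pair the libraries: deviations of libraries with the same number correlated at 0.0181 across genes, with 2 pairs only. Control replicate 1 had 26 reads of Xist and Chaf1b-deleted replicate 1 had 7905. The block turned Tet1 to -0.10. Of the pathway genes, 4 were called without the filter, 3 by the edgeR exact test, 3 by the likelihood ratio test and 2 by DESeq2, and 0 to 1 without 1 library, the 1 being Gadd45g without control replicate 2 or without Chaf1b-deleted replicate 2.

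Log2 fold changes changed sign without 1 library for Dnmt3a (-0.12 to 0.062), Uhrf1 (-0.34 to 0.070), Uhrf2 (-0.057 to 0.057), Tet1 (-0.77 to 0.57), Tet3 (-0.67 to 0.12) and Mbd2 (-0.075 to 0.54). Uhrf2 was at 0.020 without the filter and at 0.00015 with at least 10 counts in every library. The cause was not tested. Dnmt1, Dnmt3b and Tet2 kept their sign under every alternative named here. Their TMM-scaled groups did not overlap, so leaving out 1 library could hardly turn the sign. Levels by unique exonic length and shares by longest transcript were added after the data were seen. With 2 libraries a group, the intervals given are wide and include changes in both directions for all 9 genes.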
